A study of Rattus norvegicus with 18 samples.

Results

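The 6 genes described here carry the synthesis of fatty acids from citrate in the liver: Acly, Me1, Acaca, Fasn and Scd, which encode enzymes, and Srebf1, which encodes a transcription factor that acts on such genes. They were chosen by their Ensembl identifiers, and all 6 of 6 identifiers were among the 30560 genes of the count files. All 6 had enough counts to be tested, as had 11268 genes in all. Liver RNA came from 18 adult female rats, about 1 year old, in 3 groups of 6 that had received vitamin D at 0, 1000 or 5000 U/kg for 3 months. The labels leave unsaid what the kg of the dose refers to (feed or body weight). Strain, feeding state and hour of sampling are not given either. Libraries were of the QuantSeq FWD kind, in which reads come from the 3' end of polyadenylated transcripts, so that a count stands for a transcript end and depends little on gene length.

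In fatty acid synthesis, citrate leaves the mitochondrion and is split by ATP citrate lyase (Acly) into acetyl-CoA. Acetyl-CoA carboxylase alpha (Acaca) turns this into malonyl-CoA, fatty acid synthase (Fasn) builds palmitate from it with NADPH that malic enzyme (Me1) helps to supply, and stearoyl-CoA desaturase (Scd) places a double bond in the product. The factor SREBP-1, encoded by Srebf1, is known to bind promoters of this pathway in the liver after it has been cut free from the endoplasmic reticulum, and carbohydrate feeding and insulin are known to raise both the factor and the pathway.

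RefSeq's promoter table for the GRCr8 assembly held windows of 300 bases, from 250 before to 50 after a gene's start, for 4 of the 6 genes: Scd, Acly, Me1 and Srebf1. Srebf1 had 2 such windows, as it is transcribed from separate starts with a shared 3' end. They were searched on both strands for the core of the sterol regulatory element (TCACNCC), the E-box (CACGTG), the CCAAT box (CCAAT) and the GC box (GGGCGG), none of which contains another. Of all 33469 windows in the table, 14.6% held the sterol element core, 6.42% the E-box, 37.5% the CCAAT box and 33.1% the GC box. The 5 windows of these genes held no match to the sterol element core or the E-box, which says only that these letters are not in the windows. The stretches below show 1 CCAAT or GC box match for each start that held one, read 5′ to 3′ along the gene, with the match, or its reverse complement, in capitals.
Acly, CCAAT box 71 bases upstream, chr10:85963686-85963715, minus strand: ggaacgcgtgtgcCCAATcgccaggctgca
Srebf1 upstream start, CCAAT box 169 bases upstream, chr10:45529317-45529346, minus strand: tcctgtggcttccATTGGaccccttgccct
Srebf1 downstream start, CCAAT box 108 bases upstream, chr10:45519102-45519131, minus strand: ggcgcggctgctgATTGGccatgtgcgctc
Me1, GC box 78 bases upstream, chr8:96540305-96540334, minus strand: cgccacccacgcCCGCCCccggccgcgggg
The Acly window held 3 GC boxes beside its CCAAT box, each Srebf1 window held 3, and the Me1 window held 5 with no CCAAT box. The Scd window held none of the 4 motifs. The genome build of the counts is not known here, so these positions belong to GRCr8 alone.

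Gene counts totalled 6787033 to 12555457 per library, and every level below is in CPM, which are counts scaled to a common library total, after TMM. Across the libraries the 6 genes had between 4 counts (Srebf1 in 1 rat) and 42530 counts (Scd in 1 rat). In a pair of libraries the levels of all genes followed those of their own group less closely than in the rest: the mean Spearman correlation was 0.698 in the undosed replicate 2 and 0.801 in replicate 5 at 1000 U/kg, against 0.869 to 0.942 in the other 16. Results are therefore also given without these, over the 16 close libraries. The files hold identifiers without gene names, and the labelled tissue was not checked against liver markers.

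The first step of the pathway is the supply of acetyl-CoA. Acly (ENSRNOG00000016924) ranged from 202 to 1016 CPM in undosed rats (median 514), from 258 to 736 CPM at 1000 U/kg (median 417) and from 160.3 to 682 CPM at 5000 U/kg (median 404). The groups overlapped over most of their ranges, and the highest rat of the 18 was undosed and the lowest was at 5000 U/kg. Group means were 535 ± 296, 446 ± 161 and 427 ± 189.8 CPM (SD, n = 6 each). The log2 fold change was −0.26 (SE 0.38) for 1000 against 0 U/kg and −0.33 (SE 0.38) for 5000 against 0 U/kg, and neither passed edgeR's quasi-likelihood test (adjusted p = 0.903 and 0.9999). In whole liver, fewer cells of a type and less RNA per cell cannot be told apart.

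Me1 (ENSRNOG00000009715), the cytosolic malic enzyme, ranged from 28.0 to 68.2 CPM in undosed rats (median 38.2), from 38.2 to 76.3 CPM at 1000 U/kg (median 55.9) and from 20.0 to 171 CPM at 5000 U/kg (median 39.4). Replicate 3 at 5000 U/kg, at 171 CPM, lay far above the other 5 rats of its dose, of which the next held 49.6 CPM. The log2 fold change was 0.40 (SE 0.43) both for 1000 against 0 and for 5000 against 0 U/kg, and neither passed (edgeR adjusted p = 0.865 and 0.9999). Without that rat, the value for 5000 against 0 U/kg was −0.34, and that for 5000 against 1000 U/kg went from −0.0011 to −0.74. The latter was the only member value with an unadjusted edgeR p under 0.05 in the 18 fits that left out 1 rat each. It did not pass adjustment (edgeR adjusted p = 0.659).

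Acaca (ENSRNOG00000034013), the enzyme of the committed step, ranged from 80.4 to 437 CPM in undosed rats (median 164), from 79.0 to 226 CPM at 1000 U/kg (median 129) and from 50.5 to 238 CPM at 5000 U/kg (median 167). The undosed replicate 2 held 437 CPM, and the next rat of all groups, at 5000 U/kg, held 238 CPM. Means were 199.5 ± 129, 137 ± 48.4 and 159 ± 65.4 CPM in order of dose (SD, n = 6 each). The log2 fold change of −0.54 (SE 0.39) for 1000 against 0 U/kg did not pass (edgeR adjusted p = 0.764) and was −0.15 once the undosed replicate 2 was left out. Leaving out replicate 6 of the 1000 U/kg rats gave −0.74 instead. For 5000 against 0 U/kg it went from −0.32 (SE 0.39) to 0.069 without the undosed replicate 2 and to −0.52 without the undosed replicate 4.

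Fasn (ENSRNOG00000045636), the synthase itself, ranged from 155 to 1043 CPM in undosed rats (median 409), from 157 to 688 CPM at 1000 U/kg (median 309) and from 102 to 616 CPM at 5000 U/kg (median 352). The top 2 of the 18 rats, replicates 2 and 3, were undosed, but another 2 undosed rats lay at 155 and 171 CPM, among the 4 lowest. Means were 504 ± 362, 340.1 ± 188 and 359 ± 177 CPM (SD, n = 6 each). The log2 fold change was −0.57 (SE 0.48) for 1000 against 0 U/kg and −0.49 (SE 0.48) for 5000 against 0 U/kg (edgeR adjusted p = 0.809 and 0.9999). Without the undosed replicate 2 these values were −0.22 and −0.14. With other single rats left out they reached −0.90 (without replicate 6 at 1000 U/kg) and −0.71 (without the undosed replicate 6).

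Scd (ENSRNOG00000013552), the desaturase that follows the synthase, ranged from 1206 to 4942 CPM in undosed rats (median 2673), from 762 to 3407 CPM at 1000 U/kg (median 2639) and from 666 to 5501 CPM at 5000 U/kg (median 2874). Both the highest and the lowest of the 18 rats had received 5000 U/kg. The log2 fold change was −0.30 (SE 0.45) for 1000 against 0, 0.050 (SE 0.45) for 5000 against 0 and 0.35 (SE 0.45) for 5000 against 1000 U/kg, none of which passed (edgeR adjusted p = 0.904, 0.9999 and 0.882). Reads that align in more than 1 place were not assigned to genes, so the counts of Scd, which has close paralogs, are uncertain to that extent.

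Srebf1 (ENSRNOG00000003463), the regulator, ranged from 7.47 to 32.8 CPM in undosed rats (median 18.9), from 6.25 to 45.4 CPM at 1000 U/kg (median 24.3) and from 0.577 to 38.3 CPM at 5000 U/kg (median 14.2). At 5000 U/kg replicates 1 and 2 held 2.44 and 0.577 CPM, from 21 and 4 counts, while the other 4 rats of the dose held at least 10.1 CPM. The log2 fold change was 0.28 (SE 0.66) for 1000 against 0, −0.38 (SE 0.66) for 5000 against 0 and −0.66 (SE 0.66) for 5000 against 1000 U/kg, none of which passed (edgeR adjusted p = 0.944, 0.9999 and 0.858). Without those 2 rats, an alternative chosen after seeing the data, the value was 0.16 (SE 0.52) for 5000 against 0 U/kg and −0.13 (SE 0.52) for 5000 against 1000 U/kg. For the latter, limma voom gave −1.49 (SE 0.57, adjusted p = 0.203), the smallest adjusted p of any member in any fit. With 1 rat left out at a time, edgeR's value lay between 0.036 and 0.49 for 1000 against 0 U/kg. It lay between −0.86 and −0.13 for 5000 against 0 and between −1.14 and −0.41 for 5000 against 1000 U/kg. The lower end of both ranges at 5000 U/kg came without replicate 3 of that dose and the upper end without replicate 2.

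**Figure D1:**
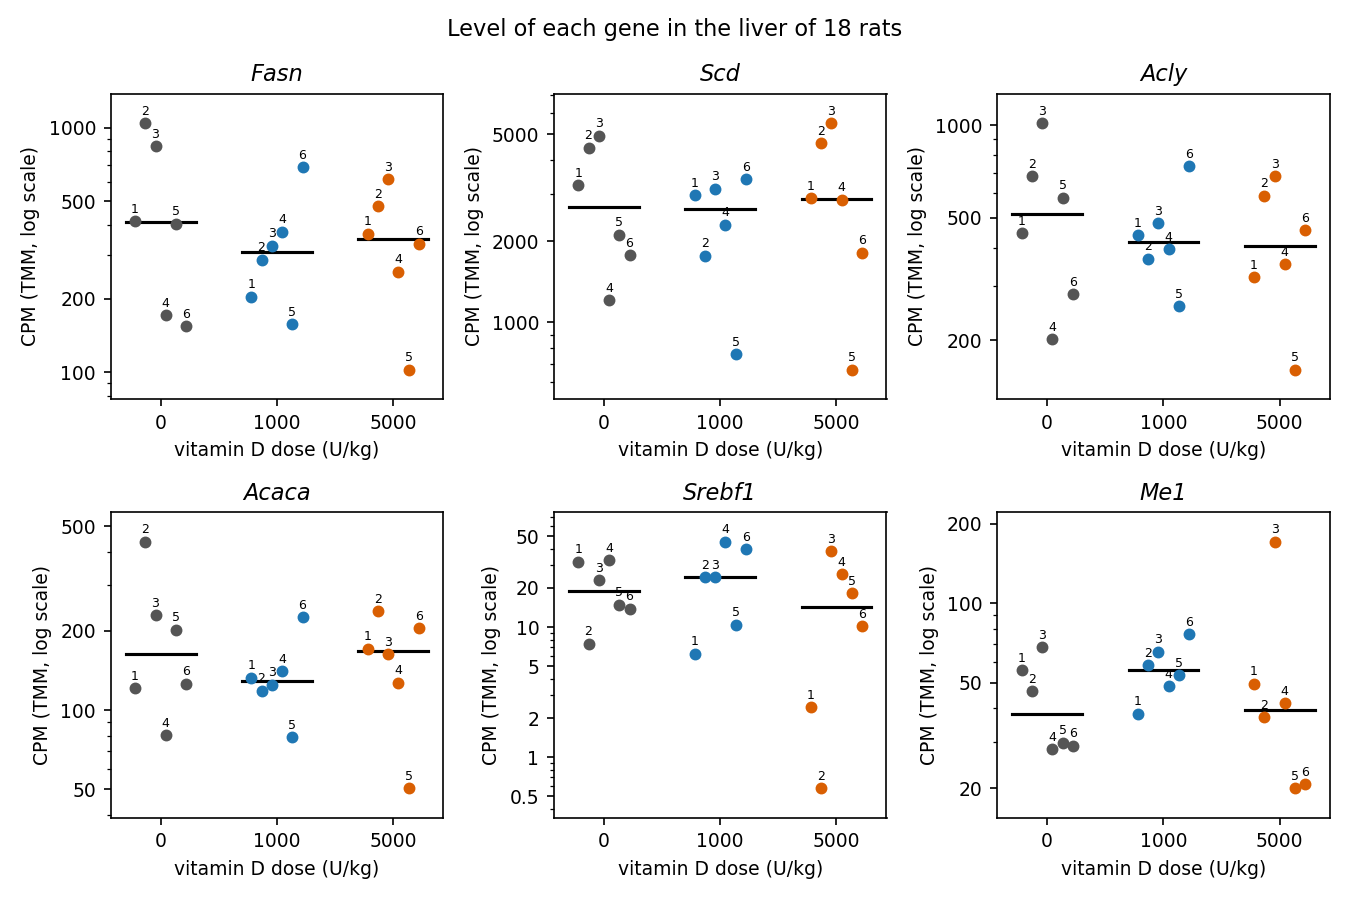
Level of each gene in each rat (points, numbered by replicate) by vitamin D dose (x axis, U/kg), in TMM-scaled CPM on a log axis. The line is the median of 6 rats. In every panel the 3 doses overlap, and replicate 5 at 5000 U/kg is the lowest of 18 rats for each gene but Srebf1.

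In none of the 3 comparisons did any of the 6 genes pass. At 1000 against 0 U/kg edgeR's test called 0 of 6 genes at an adjusted p under 0.05, against 0% of all 11268 genes tested, and 0 of 6 had an unadjusted p under 0.05, against 7.45% of all genes. At 5000 against 0 U/kg 0 of 6 were called against 0%, and 0 of 6 against 3.55% had an unadjusted p under 0.05. At 5000 against 1000 U/kg the counts were 0 of 6 against 0%, and 0 of 6 against 5.86%. The test of any difference among doses gave 0 of 6 against 0%, and 0 of 6 against 5.59%. DESeq2 and limma voom also called 0 of the 6 in each. In 0 of 6 genes did the rats of any 2 doses not overlap, against 0.0976%, 0.142% and 0.177% of all genes in the 3 comparisons in the same order.

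By direction, 4 of 6 genes (Acly, Acaca, Fasn and Scd) had a lower fitted mean at 1000 than at 0 U/kg, where 50.4% of all genes tested had. At 5000 against 0 U/kg 4 of 6 (Acly, Acaca, Fasn and Srebf1) were lower, where 59.1% of all genes were. At 5000 against 1000 U/kg 3 of 6 (Acly, Srebf1 and Me1) were lower, where 53.9% of all genes were, with Me1 at −0.0011. The median log2 fold change of the 6 genes was −0.28 at 1000 and −0.33 at 5000 against 0 U/kg, beside −0.0045 and −0.080 for all genes tested. The comparisons with 0 U/kg share their undosed rats. Over the 16 close libraries, the values for 1000 against 0 U/kg were −0.068 for Fasn, −0.025 for Acaca, −0.058 for Acly and 0.039 for Scd. For 5000 against 0 U/kg they were −0.14 for Fasn, −0.24 for Acly and −0.55 for Srebf1. Those for Acaca, Scd and Me1 were 0.073, 0.21 and 0.43.

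The 95% confidence intervals, each set around its estimate, show which sizes of change were compatible with these data. For 5000 against 0 U/kg the fold change lay between 0.354 and 1.44 for Fasn, between 0.454 and 1.40 for Acaca, and between 0.459 and 1.39 for Acly. It lay between 0.536 and 2.0 for Scd, between 0.708 and 2.47 for Me1, and between 0.295 and 2.0 for Srebf1.

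**Figure D2:**
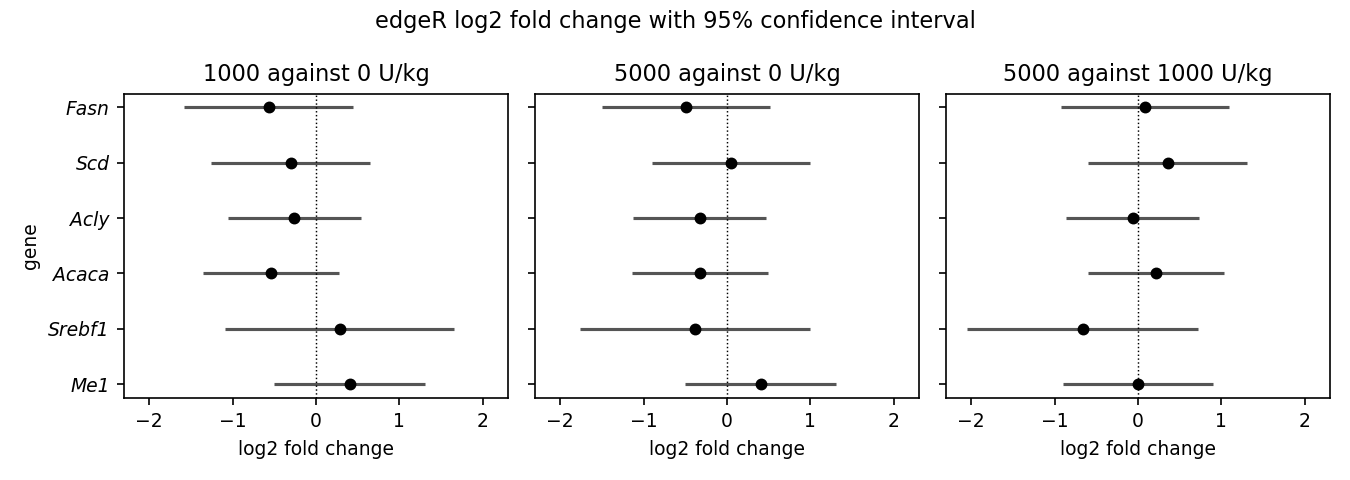
edgeR log2 fold change (points) with 95% confidence interval (lines) of each gene in the 3 comparisons of doses, fitted on all 18 libraries. Every interval crosses 0; that of Fasn at 5000 against 0 U/kg is centred on −0.49.

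Rats of the same dose differed by more than the dose means did. Between the lowest and the highest rat of a dose, Fasn differed 4.39-fold to 6.75-fold, depending on the dose. Acaca differed 2.86-fold to 5.44-fold, Acly 2.85-fold to 5.03-fold, Scd 4.097-fold to 8.26-fold, Me1 1.996-fold to 8.58-fold and Srebf1 4.39-fold to 66.4-fold. Between the lowest and the highest of all 18 rats, Fasn differed 10.2-fold, Acaca 8.65-fold, Me1 8.58-fold, Scd 8.26-fold and Acly 6.34-fold. Srebf1 differed 78.7-fold, with 4 counts behind its lowest level. For Fasn, Acaca, Acly and Srebf1 those 2 rats were of different doses. Within doses, the SD of log2 CPM was 0.94 for Fasn, 0.91 for Scd, 0.75 for Me1, 0.73 for Acaca, 0.72 for Acly and 1.47 for Srebf1, beside a median of 0.66 over all genes tested. Over the 18 rats Fasn varied more than 78.0% of genes, Scd more than 76.0%, Me1 more than 61.2%, Acaca more than 59.4%, Acly more than 57.3% and Srebf1 more than 96.1%. The median over all genes was 0.47 in the 16 close libraries. In those Fasn varied more than 86.7% of genes, Scd more than 84.9%, Me1 more than 83.2%, Acly more than 77.7%, Acaca more than 70.5% and Srebf1 more than 98.5%. These shares are of all genes tested, which were not matched for level. By mean CPM over 18 rats, Scd lay above 99.7% of genes, Acly above 98.1%, Fasn above 97.7% and Acaca above 94.4%. Me1 lay above 83.5% and Srebf1 above 65.6%.

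The rats that were high for 1 enzyme tended to be high for the others. Replicate 5 at 5000 U/kg was the lowest of 18 for Fasn (102 CPM), Scd (666), Acly (160.3), Acaca (50.5) and Me1 (20.0), with Srebf1 at 18.2 CPM. Replicate 3 at 5000 U/kg was the highest of 18 for Scd (5501 CPM) and Me1 (171) and held 616 CPM of Fasn. In Acaca, at 163 CPM, that rat ranked only 8 of 18. The summed level of the 6 genes, as a share of gene counts, ran from 0.115% (95% exact Clopper-Pearson interval 0.113 to 0.118) to 0.736% (0.730 to 0.742) between these 2 rats of the same dose. In undosed rats it ran from 0.165% to 0.736% and at 1000 U/kg from 0.114% to 0.570%. The group means were 0.417 ± 0.216%, 0.346 ± 0.150% and 0.410 ± 0.220% in order of dose (SD, n = 6 each). Scd supplied 57.7% to 78.4% of these counts. The intervals cover counting error only.

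**Figure D3:**
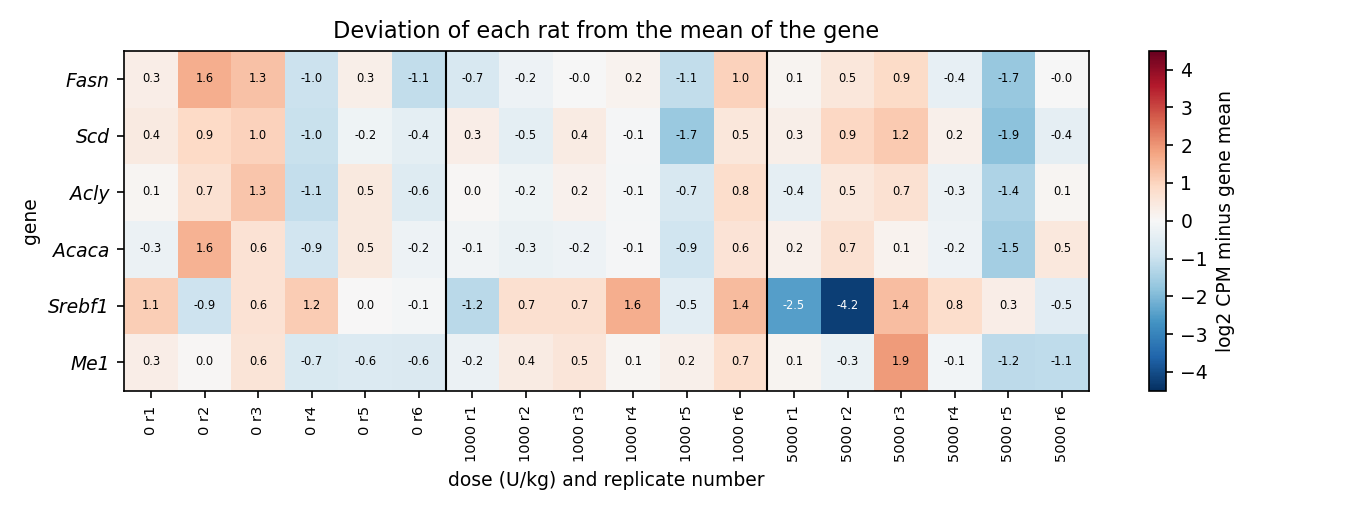
Log2 CPM of each gene (rows) in each rat (columns, by dose in U/kg and replicate), minus the mean of the gene over 18 rats. Fasn, Scd, Acly and Acaca share their high rats (undosed replicate 3) and low rats (5000 U/kg replicate 5), while Srebf1 has its lowest values in replicates 1 and 2 at 5000 U/kg.

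Over the 18 rats, Fasn, Scd, Acly and Acaca varied together. The 6 pairs of these 4 genes had Pearson's r of 0.780 to 0.912 and Spearman's rho of 0.713 to 0.897 in log2 CPM. All 6 passed in both measures, with permutation p adjusted over the 15 pairs of at most 0.000325 for r and 0.00295 for rho. Fasn and Acly had the highest r, 0.912 (permutation p = 1e-05, the smallest that 100000 resamples can give, adjusted p = 7.5e-05), and a rho of 0.897 (permutation p = 1e-05, adjusted p = 7.5e-05). It was 0.900 without the 2 rats farthest from the median of Fasn. Among the 11267 other genes tested, Acly had the highest r with Fasn of all, and Fasn the highest with Acly. With Fasn, Acaca ranked 5 and Scd ranked 9 of 11267. The median r of Fasn with all other genes was −0.045, and 31 genes, or 0.275%, had an r over 0.7 with it.

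The relation was recomputed without dose and without single libraries. With dose group means removed, the 6 pairs had r of 0.779 to 0.916. In the 16 close libraries r was 0.763 to 0.921, and Acly and Fasn were again each other's nearest gene. Without the 2 rats farthest from the median of the first gene of a pair, r was 0.604 to 0.900, lowest for Scd and Acaca. Within single doses, with 6 rats each, all 18 values of r were above 0, from 0.684 to 0.956. By exact permutation tests adjusted over the 45 relations within doses, 0 of these 18 passed, with rho from 0.429 to 1.0. With 720 orders and 45 relations, a single relation could not pass on its own. Even the rho of 1.0, for Scd and Acly at 1000 U/kg, had an adjusted p of 0.125 (exact permutation test). The count therefore does not show a lack of relation within doses. Library measures were set against each gene as well, namely depth, the shares of reads outside genes, in more than 1 gene and of multiple alignment, and the share of the top 10 genes. None of the 30 relations passed (smallest adjusted p = 0.104, permutation test). Over all 18 libraries, the largest for these 4 genes was that of Acaca with the share of reads in more than 1 gene (r = 0.608, permutation p = 0.00696, rho = 0.589, p = 0.0113). Its r was 0.322 without the 2 libraries farthest in that share and 0.369 in the 16 close libraries. In those 16 the share of the top 10 genes had r of 0.548 with Scd, 0.438 with Fasn, 0.326 with Acaca and 0.272 with Acly. Over 18 libraries these were −0.029, 0.029, −0.062 and −0.018. The values in 16 libraries were not tested. The relations with library measures were chosen after seeing the data.

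**Figure D4:**
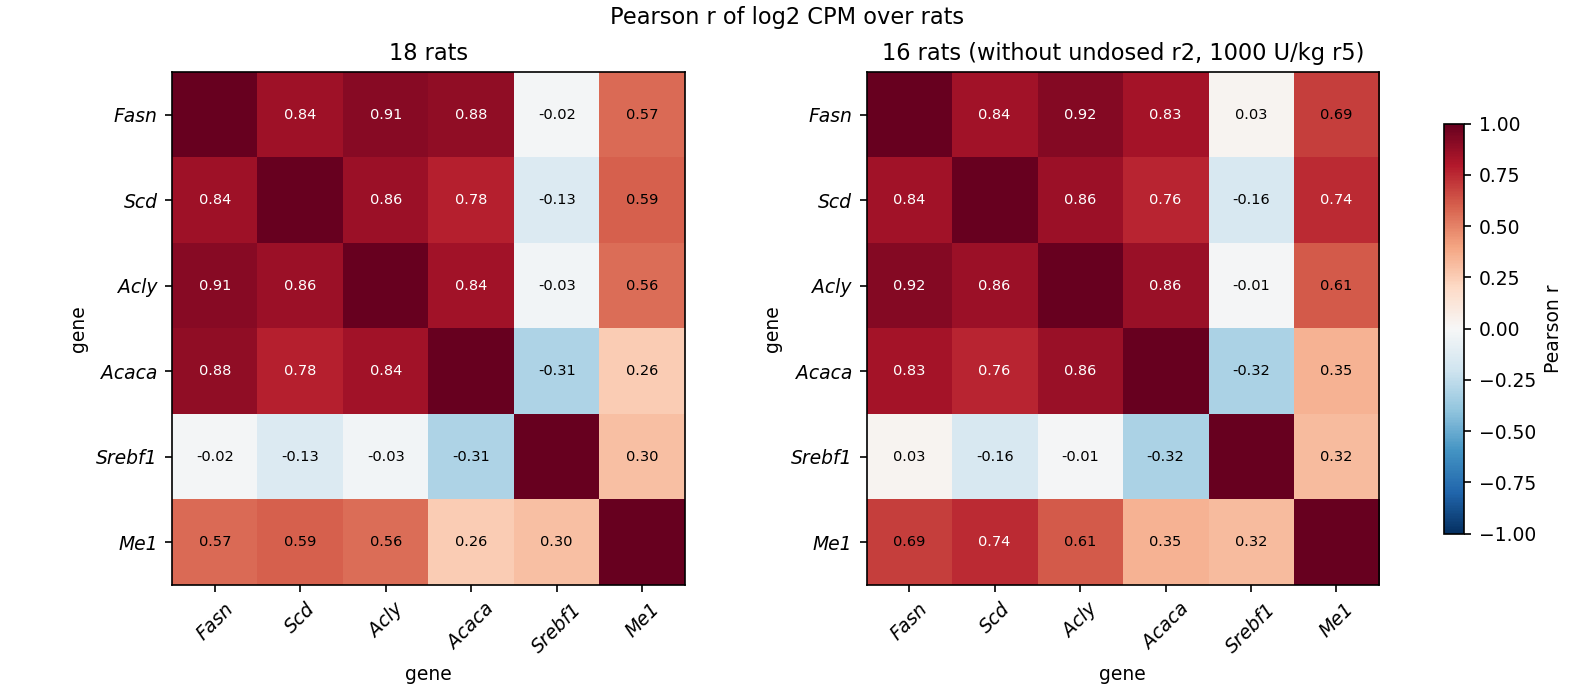
Pearson's r of log2 CPM between the 6 genes (rows and columns) over all 18 rats (left) and over 16 rats without the undosed replicate 2 and replicate 5 at 1000 U/kg (right). The block of Fasn, Scd, Acly and Acaca lies at 0.76 or above in both, Me1 is intermediate and Srebf1 near 0 with Fasn and Acly.

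Me1 followed the other enzymes less closely in value. Its r was 0.595 with Scd (permutation p = 0.00926, adjusted p = 0.0198), 0.566 with Fasn (p = 0.0133, adjusted p = 0.0249), 0.555 with Acly (p = 0.0162, adjusted p = 0.027) and 0.257 with Acaca (p = 0.301, adjusted p = 0.376). Spearman's rho was 0.589, 0.538, 0.536 and 0.152 in the same order (permutation p = 0.0115, 0.0232, 0.0237 and 0.547, adjusted p = 0.0246, 0.0395, 0.0395 and 0.684). Without the 2 rats farthest from the median of the first gene, r was 0.667, 0.540, 0.412 and 0.0753 in the same order. The relations of Me1 depended on single rats. Without replicate 5 at 5000 U/kg none of them passed, with r of 0.492 for Scd, 0.466 for Fasn and 0.445 for Acly (permutation p adjusted 0.0995, 0.11 and 0.121). Adjusted p also went to between 0.0521 and 0.056 for Scd and Acly without replicate 3 at 5000 U/kg, for Fasn and Acly without replicate 6 at 1000 U/kg, and for Acly without the undosed replicate 4 (permutation tests). In the 16 close libraries, r was 0.745 with Scd, 0.690 with Fasn and 0.614 with Acly, all of which passed (largest adjusted p = 0.0187, permutation test). Whether Me1 differed from the other enzymes in its correlations was not tested.

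Srebf1 did not follow the enzymes in these rats. Its r was −0.023 with Fasn (permutation p = 0.928, rho = 0.104, p = 0.681), −0.026 with Acly (p = 0.920, rho = 0.0691, p = 0.786), −0.135 with Scd (p = 0.596, rho = 0.0217, p = 0.934), −0.307 with Acaca (p = 0.211, rho = −0.282, p = 0.255) and 0.300 with Me1 (p = 0.221, rho = 0.414, p = 0.0913). None of these 5 pairs passed (smallest adjusted p = 0.301 for r and 0.137 for rho, permutation tests). Without the 2 rats farthest from the median of the first gene of a pair, r was 0.0888 with Fasn, −0.0639 with Acly, −0.219 with Scd, −0.305 with Acaca and 0.456 with Me1. By r with Fasn, 48.1% of the other genes ranked above Srebf1. Replicates 1 and 2 at 5000 U/kg, lowest in Srebf1, held 368 and 478 CPM of Fasn, above the median of 352 CPM over all rats. Without these 2 rats r was 0.18 with Fasn, 0.18 with Scd, 0.064 with Acly and −0.18 with Acaca, none of which passed (adjusted p of 0.548 to 0.813, permutation tests). Within doses r with Fasn was −0.400 in undosed rats, 0.826 at 1000 U/kg and −0.265 at 5000 U/kg (exact permutation p = 0.454, 0.0472 and 0.617, n = 6 each), with rho of −0.257, 0.829 and −0.0857 (exact permutation p = 0.658, 0.0583 and 0.919). None of these passed over the 45 relations (adjusted p of at least 0.129 for r), where a single relation of 6 rats could not pass on its own. The difference between doses was not tested.

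More genes of the whole table shared the pattern of Srebf1 than that of any of the 5 enzymes. Of 11267 other genes, 710 had an r over 0.7 with Srebf1, against 244 for Acaca, 55 for Scd, 31 for Fasn, 16 for Acly and 5 for Me1. The median over all genes tested was 325, and 70.7% of genes had fewer such genes than Srebf1. In the 16 close libraries, 1616 genes, or 14.3%, had such an r with Srebf1, more than for 98.4% of genes, against 28 to 77 for the enzymes. The median over all genes was then 183. These are descriptions over genes that share libraries, and no test was made.

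Some features of the counts bear on Srebf1. In the RefSeq table of GRCr8, the record of Srebf1 overlaps that of the protein-coding gene Rai1, and reads that fall in more than 1 gene were not assigned to either. The records of Fasn, Scd, Acly and Me1 overlap no other, and that of Acaca overlaps 3. The share of reads in more than 1 gene, over the whole library, had r = −0.634 with Srebf1 (permutation p = 0.00499, rho = −0.593, p = 0.0112), which did not pass over 30 relations (adjusted p = 0.104, and 0.169 for rho). It was −0.541 without the 2 libraries farthest in that share and −0.726 in the 16 close libraries. Whether reads shared with Rai1 set the level of Srebf1 was not tested, and neither the annotation nor the strand setting of the counts is known here. As only the 3' end was read, transcripts from the separate Srebf1 starts cannot be told apart, and the amount of cut, active SREBP-1 protein was not measured.

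**Figure D5:**
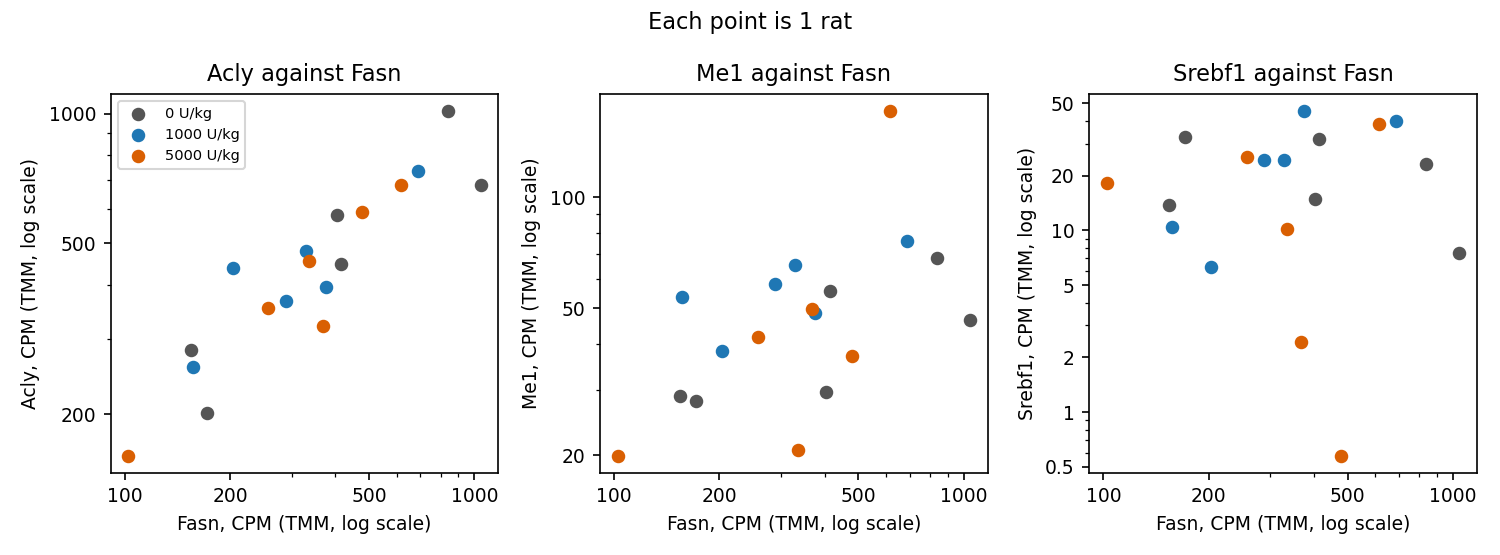
Levels of Acly, Me1 and Srebf1 (y axes) against Fasn (x axes) in TMM-scaled CPM on log axes, each point 1 rat, coloured by dose. Acly rises with Fasn across all doses (r = 0.912), Me1 more loosely (0.566), and Srebf1 shows no trend (−0.023).

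Each gene was also set against the mean of the other 5, each standardised. Of the 11263 genes that are not among those 5, Fasn ranked 2 (r = 0.903), Acly ranked 2 (0.888), Scd 5 (0.819), Acaca 30 (0.658), Me1 93 (0.602) and Srebf1 5686 (−0.043). Beyond the 6, the genes nearest to the mean of all 6 over 18 libraries, among 7708 with a mean of at least 5 CPM, were ENSRNOG00000048949 (r = 0.917, 4.24 to 149 CPM) and ENSRNOG00000020420 (r = 0.890, 57.9 to 317 CPM). The latter had r of 0.870 to 0.899 with Fasn, Scd, Acly and Acaca, and −0.015 with Srebf1. The most opposite patterns were those of ENSRNOG00000057470 (r = −0.813) and ENSRNOG00000065288 (r = −0.793). In the 16 close libraries these 4 values were 0.917, 0.894, −0.778 and −0.786. The files do not pair these identifiers with names, and the values are descriptions with no test.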

How the data were processed

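Liver RNA of 18 rats was sequenced, 1 library per rat. The files hold counts per Ensembl gene as deposited. FastQC, STAR, HTSeq and DESeq2 are named in the submitters' processing notes, and no versions, build, annotation or strand setting are known here. The 5 summary rows of each file (7.34% to 11.8% of reads outside genes, 2.54% to 3.84% in more than 1 gene, 8.45% to 14.1% aligned in more than 1 place) entered neither library sizes nor tests. Groups came from the labels. No 2 libraries of a group agreed within sampling noise.

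Counts were tested with edgeR 4.0.16 in R 4.3.3 (TMM, filterByExpr by group, robust quasi-likelihood test, 1 model of 3 doses), with Benjamini-Hochberg adjustment over 11268 genes and a threshold of 0.05. DESeq2 1.42.0 and limma 3.58.1 (voom with quality weights) were alternatives, with other scalings, filters, a replicate block and left-out libraries. Correlations used log2 CPM (prior count 2) and two-sided permutation tests with 100000 resamples, adjusted over 15 pairs, or all 720 orders within a dose, adjusted over 45. The relations with library measures were added after seeing the data. The fitting script was tested on simulated data.

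All 6 members were named by rule, with the 2 genes most and the 2 least correlated with their mean among genes of at least 5 CPM. The members and lists were chosen with earlier results of these data known. As the identifiers could not be paired with names through the RefSeq table (0 of 47357 records hold an Ensembl identifier), the lists of other pathway genes and cell type markers were not used here.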

Additional observations from a re-analysis of the deposited data

Results flagged for a closer look

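Me1 in replicate 3 at 5000 U/kg, at 171.27 CPM from 1193 counts, lay far from the other 5 rats of its dose: its gap to the next, at 49.6 CPM, was 0.804 of the group's range, above the 95% limit for 6 samples. It was the only 1 of 21 groups of 6 values so marked, where chance marks about 1 in 20. The limit was applied to CPM, and the mark depends on that scale. In log2 CPM this rat held 7.42, the next 5.64 and the lowest of the dose 4.34, so the gap was a smaller share of the range. The same rat had the highest Scd of the 18 (5501 CPM) and ranked 4 in Fasn, 3 in Acly and Srebf1 and 8 in Acaca.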

How the results depend on the processing

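Under 29 alternatives 0 of 6 genes passed in any comparison of doses, and 47 of 522 log2 fold changes had the opposite sign, of at most 0.34 in size. With limma voom these were, for 1000 against 0 U/kg, Fasn 0.080; for 5000 against 0, Fasn 0.0019, Scd −0.15, Acaca 0.032 and Me1 −0.17; and for 5000 against 1000, Fasn −0.078 and Scd −0.13. With the replicate block they were Scd −0.096 (5000 against 0) and Fasn −0.050 (5000 against 1000), and 0 members were called. The numbers share no stated litter or batch. Deviations of same-numbered rats had a correlation over 0.1 in 10 of 18 pairs, with values from −0.414 to 0.644. Rats of unlike number were not compared in this way, so the count has no background and shows no effect of the number. In the 16 close libraries the values of opposite sign were Scd 0.039 (1000 against 0), Acaca 0.073 (5000 against 0) and Fasn −0.070 (5000 against 1000), and r of Fasn with Srebf1 was 0.028. Without the 2 rats of lowest Srebf1, chosen after seeing the data, they were Scd −0.13 and Srebf1 0.16 (5000 against 0), and Fasn −0.053, Acaca −0.0014 and Me1 0.16 (5000 against 1000), and r with Srebf1 was 0.18 for Fasn, 0.18 for Scd and 0.064 for Acly. Me1 for 5000 against 1000 was 0.0076 with upper-quartile scaling, 0.010 with total counts, 0.014 without a filter and 0.0038 with only the groups compared. With CPM by total counts, r with Srebf1 was 0.017 for Fasn and 0.033 for Acly. Leaving out 1 rat each gave ranges of −0.46 to 0.026 for Acly (1000 against 0); −0.20 to 0.27 for Scd, −0.52 to 0.069 for Acaca and −0.34 to 0.59 for Me1 (5000 against 0); and −0.14 to 0.41 for Fasn, −0.25 to 0.14 for Acly and −0.74 to 0.17 for Me1 (5000 against 1000). The r with Srebf1 ranged from −0.099 to 0.11 for Fasn, −0.23 to 0.080 for Scd and −0.10 to 0.14 for Acly. The cause of these changes of sign was not tested. The 6 pairs of Fasn, Scd, Acly and Acaca passed in all 24 alternatives run for them, with r of 0.689 to 0.935, and 6 to 9 of the 15 pairs passed in all. Srebf1 had 4 counts in 1 library, and how far depth set its spread was not tested.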
